A study of Mus musculus with 16 samples.

Results

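The data described are the counts of 37 genes of the Fanconi anemia (FA) and homologous recombination pathways, taken by symbol from a table of 56691 genes. All 37 were present, each in 1 row. The table held 637 single germinal center (GC) B cells sorted from the light zone (LZ) of popliteal lymph nodes and sequenced by SMART-seq2, a full-length protocol without molecular identifiers. B1-8hi BTKC481S and B1-8hi BTKWT B cells had been transferred into the same OVA-primed male host mice, 5 of which received acalabrutinib, a BTK inhibitor (A7, A8, A10, A11 and A12), and 3 vehicle (V5, V7 and V9). The B1-8hi heavy chain gives affinity for the hapten NP, and the C481S change makes BTK insensitive to the drug. The labels list 16 samples, 1 of each genotype per host, but cell names carry the host, plate and well only. Both genotypes of a host were therefore combined, with the host as the replicate, and the genotypes were not compared. The cells came from 2 experiments that are not named per host, so experiment and host cannot be told apart.

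The FA pathway repairs crosslinks between DNA strands. A core complex around the ubiquitin ligase FANCL marks the FANCD2 and FANCI pair, and the marked pair brings nucleases and recombination factors to the stalled fork. Homologous recombination then copies the intact sister chromatid: BRCA1 and BARD1 start it, PALB2 and BRCA2 prepare the strand exchange, and the BLM helicase and several nucleases resolve the joined strands. The kinase ATR and its effector CHK1 hold the cell cycle while forks are repaired. GC B cells divide fast and mutate their antibody genes, and are known for high use of these pathways.

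Low, S-high and mitosis-high cells were set apart by a pair of scores, the average of log2(CPM + 1) over 40 genes of S phase and over 54 of mitosis, none of them among the 37. CPM is counts-per-million, a gene's count relative to all counts of the cell or the sum of cells. A cell above the mean of all cells on either score was called S-high or mitosis-high after its higher score, and a cell above it on neither was called low. There were 252 low, 236 S-high and 149 mitosis-high cells, with at least 10 cells in each host and class. These classes are ranges and not cell types: 95 cells lay within 0.25 SD of a cut, 205 were above 0 on both scores, and the scores correlated over the 637 cells (Pearson r = 0.52, which shares depth and library). Low cells were also shallower, with a median of 683172 counts and 3447.5 genes, against 877125 and 4275.5 in S-high and 875874 and 4414 in mitosis-high cells. A host contributed between 26778559 and 114987280 counts. All 14 GC B cell markers were present, at a summed 9310 to 12749 CPM per host, against 167 to 401 CPM for 8 T cell markers, 23.1 to 49.3 CPM for 8 macrophage and monocyte markers with Itgam at 0, and 115 to 259 CPM for 7 stromal markers with Cxcl13 at 0. Plasma cell markers summed to 893 to 1522 CPM. The 7 LZ markers summed to 3125 CPM in low, 2116 in S-high and 1820 in mitosis-high cells, and the 6 dark zone markers to 1597, 1303 and 1862 CPM. Ccnb2, a dark zone marker here, is also a gene of the mitosis score, so the dark zone sum is not independent of the classes. The part of depth and of these markers in the differences between classes was not tested, apart from the cells thinned to an equal depth below. Thinning equalises counts and not the genes captured per cell.

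Promoters of 33 of the 37 genes were held in the RefSeq promoter table (GRCm38.p6, 250 bases before to 50 after each start). The counts were mapped to GRCm39, so the windows were matched by symbol alone. Each window was searched on both strands for 4 forms of the E2F site (TTTCCCGC, TTTGGCGC, TTTCGCGC and TTTGCCGC), for the CHR element of mitotic genes (TTTGAA or TTCGAA) and for CCAAT. The 250 bases before the start are shown, 5′ to 3′, for the gene called higher in mitosis-high than in S-high cells (Ankle1), for 1 high in both classes with the widest use in mitosis-high cells (Neil3), for 1 with an E2F form (Topbp1), for 1 with a pair of CCAAT matches (Clspn), and for 1 whose level did not pass the test between classes (Fancl). Matches are in capitals.
Ankle1, chr8:71405762-71406011, plus strand: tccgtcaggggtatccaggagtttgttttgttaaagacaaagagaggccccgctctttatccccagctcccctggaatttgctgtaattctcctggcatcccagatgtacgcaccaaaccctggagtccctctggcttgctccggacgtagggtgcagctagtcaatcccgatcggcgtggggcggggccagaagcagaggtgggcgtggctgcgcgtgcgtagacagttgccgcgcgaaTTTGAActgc
Neil3, chr8:53639066-53639315, minus strand: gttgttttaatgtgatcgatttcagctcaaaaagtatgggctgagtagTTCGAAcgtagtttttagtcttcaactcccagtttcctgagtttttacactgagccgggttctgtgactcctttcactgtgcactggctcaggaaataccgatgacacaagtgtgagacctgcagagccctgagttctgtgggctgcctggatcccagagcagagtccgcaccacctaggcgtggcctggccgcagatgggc
Topbp1, chr9:103305077-103305326, plus strand: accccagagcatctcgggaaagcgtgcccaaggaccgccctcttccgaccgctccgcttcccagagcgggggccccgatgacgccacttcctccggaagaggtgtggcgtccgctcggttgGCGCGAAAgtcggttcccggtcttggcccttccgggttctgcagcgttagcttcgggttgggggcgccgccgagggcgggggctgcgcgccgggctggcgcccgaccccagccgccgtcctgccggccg
Clspn, chr4:126556730-126556979, plus strand: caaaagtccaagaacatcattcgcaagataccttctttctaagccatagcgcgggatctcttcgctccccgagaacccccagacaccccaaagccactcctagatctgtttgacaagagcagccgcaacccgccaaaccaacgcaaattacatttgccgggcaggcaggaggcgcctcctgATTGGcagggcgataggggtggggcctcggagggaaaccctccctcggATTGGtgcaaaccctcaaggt
Fancl, chr11:26386834-26387083, plus strand: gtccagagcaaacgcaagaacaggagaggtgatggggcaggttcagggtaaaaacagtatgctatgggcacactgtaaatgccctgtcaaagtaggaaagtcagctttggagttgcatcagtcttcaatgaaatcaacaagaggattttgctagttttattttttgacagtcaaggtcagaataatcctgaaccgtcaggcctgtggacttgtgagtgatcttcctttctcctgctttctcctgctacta

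Ankle1 holds TTTGAA from base -10 to base -5 of its start, and Neil3 TTCGAA from -202 to -197. An E2F form stood in 7 of the 33 windows of members, or 21.2%, against 2.6% of the 27025 genes in the table. It stood in 5 of the 16 windows of members called higher in a class below by edgeR (Bard1, Clspn, Mcm8, Rad51c and Topbp1) and in 2 of 16 of those not called (Brca2 and Fancg). In Clspn it lies after the start, outside the stretch shown. A CHR form stood in 5 of 16 called members (Ankle1, Bard1, Eme1, Neil3 and Polq) and in 1 of 16 not called (Atr), against 21.7% of all genes, and CCAAT in 8 of 16 and 9 of 16 against 41.1%. A match is a run of letters and was not tested as a site.

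Of the 37 genes, 19 were called higher in at least 1 class of cycling cells, and most of those called in S-high cells were called in mitosis-high cells as well. Both classes include cells above 0 on both scores (205 in all), so shared calls are partly built into the classes. On cells above 0 on 1 score only, which are fewer, 6 members were called in each class. By edgeR, of 36 genes tested (Fancf was too low), 19 were higher in S-high than in low cells and 16 in mitosis-high than in low cells, and none was lower in either. Of all 12803 genes tested, 2.8% were called higher in S-high and 2.78% in mitosis-high cells, and 0.922% and 1.3% lower. The members were chosen with earlier results of these data known, so the comparison with all genes is a description and not a test of the set. Of 62 other genes of these pathways tested, 12 were called higher in S-high and 6 in mitosis-high cells. The median log2 fold change of the 36 genes was 3.85 in S-high and 2.67 in mitosis-high cells, against -0.07 and -0.13 over all genes tested. In 16 of the 36 genes every host's S-high value lay above every host's low value, against 1.88% of all genes tested, and in 11 every mitosis-high value did, against 1.78%. Between S-high and mitosis-high cells edgeR called 1 gene, Ankle1, higher in mitosis-high cells. For all genes tested, 0.109% were higher in S-high and 0.141% in mitosis-high cells.

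Calls are edgeR's unless DESeq2 is named. By edgeR, 15 members were higher in both classes: Fancd2, Bard1, Brip1, Rad51ap1, Rad51c, Xrcc3, Rad54l, Rad54b, Hrob, Mcm8, Blm, Eme1, Neil3, Polq and Clspn. Of these 15, on cells above 0 on 1 score only, Brip1, Clspn, Neil3 and Polq were called in each class. Xrcc3 was called there in S-high cells alone and Fancd2 in mitosis-high cells alone. Another 3, Fanci, Brca1 and Topbp1, were called by edgeR in S-high and not in mitosis-high cells, without a called difference between the classes. By edgeR no member was higher in S-high than in mitosis-high cells, and the remaining 17 tested genes passed no edgeR test, which does not show that they were level. DESeq2 called more genes of every kind. It called 24 members higher in S-high cells (6.97% of all genes), adding Brca2, Chek1, Fancb, Timeless and Xrcc2, and 21 higher in mitosis-high cells (6.52%), adding Fanci, Brca1, Topbp1, Fancb and Xrcc2. It called 0 members lower in either (5.04% and 6.62% of all genes). The S-high pattern of Fanci, Brca1 and Topbp1 therefore held for edgeR and not for DESeq2. Between S-high and mitosis-high cells DESeq2 called Xrcc3 higher in S-high cells (3.19% of all genes) beside Ankle1 lower (2.32%).

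The classes were also compared by how many cells reached 10 CPM for a gene, which is not the same as holding any count. Of 5938 member values above 0, 1616 (27.2%) lay under that cut. The gap was wide for Brca2, with a count in 44.8% of low, 64.8% of S-high and 59.1% of mitosis-high cells. It reached 10 CPM in 5.16%, 30.5% and 18.1%. Counting a cell as expressing a gene at 10 CPM or more, a low cell expressed a median of 2 of the 37 genes, an S-high cell 11 and a mitosis-high cell 9. None of the 37 was expressed in 48 of 252 low cells (19.0%), 2 of 236 S-high cells and 3 of 149 mitosis-high cells. For the 25 genes with at least 5 expressing cells in each class, the median over genes of the level in expressing cells was 313 CPM in low, 334 in S-high and 273 in mitosis-high cells, and 12 of the 25 were higher in S-high than in low cells. The share of expressing cells was higher than in low cells for 36 of 37 genes in S-high cells and for 36 of 37 in mitosis-high cells. The same count over all genes was not made. Low cells had fewer genes detected (median 3447.5, against 4275.5 and 4414), so these counts are not a result about the members. Thinning to 459128 counts, which left out 64 shallower cells, moved no share by more than 1.95 percentage points. Expressing cells lay far above the 10 CPM cut, so thinning could move few shares. It equalises counts and not the genes captured per cell, and a difference in capture between classes was not tested. CPM and shares are not corrected for transcript length and are compared within a gene.

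**Figure D1:**
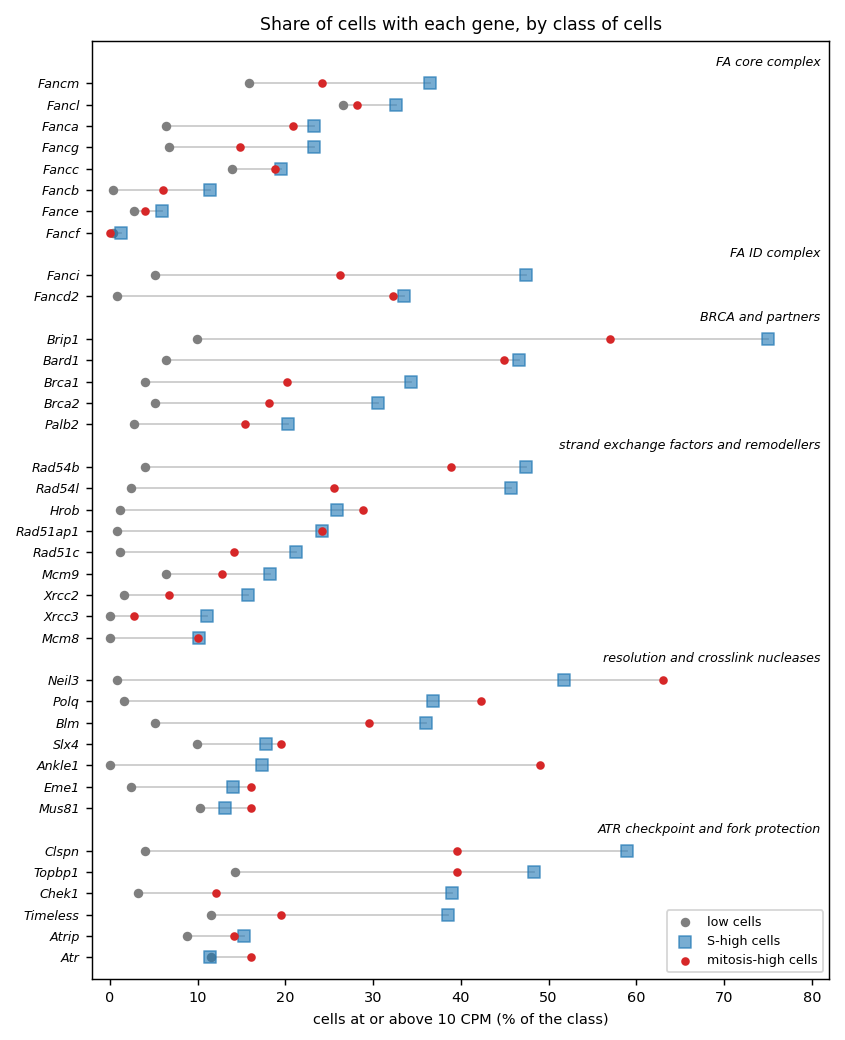
Percent of low (grey circles), S-high (blue squares) and mitosis-high (red circles) cells at 10 CPM or more for each of the 37 genes, grouped by role. Brip1 reaches 75% of S-high cells and Ankle1 goes from 0 low cells to 49.0% of mitosis-high cells, while the 3 classes lie close together for Fancl, Fancc, Mus81 and Atr.

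Ankle1, an endonuclease that cuts DNA bridges and branched DNA, was the member called higher in mitosis-high than in S-high cells. Its level in low cells was 0 in 7 of 8 hosts and 0.0306 CPM in the other. In S-high cells it ran from 37.4 to 115 CPM over hosts (median 88.1), and in mitosis-high cells from 130 to 271 CPM (median 215). All 8 mitosis-high values lay above all 8 S-high values, and the log2 fold change of S-high over mitosis-high cells was -1.48 (SE 0.28, edgeR adjusted p = 0.028). It was expressed in 41 of 236 S-high cells (17.4%) and 73 of 149 mitosis-high cells (49.0%). Low cells held 1 count in all, so the ratio of mitosis-high to low cells, 37673, has a 95% counting interval of 6761 to 1.48806e+06, which covers counting error only. The call between S-high and mitosis-high cells was lost when any 1 of the 8 hosts was left out, with adjusted p from 0.0503 to 0.122, and Ankle1 was higher in mitosis-high cells in 8 of 8 hosts.

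Neil3, a DNA glycosylase that unhooks crosslinks, was called higher in both classes and was seldom detected in low cells. In low cells its level ran from 0 to 7.1 CPM (median 0.104), and 2 of 252 cells expressed it. In S-high cells it ran from 236 to 380 CPM (median 338) and in mitosis-high cells from 179 to 611 CPM (median 438). Neither class overlapped the low values. The log2 fold change against low cells was 9.37 (SE 1.05, adjusted p = 2.81e-05) in S-high and 9.63 (SE 1.06, adjusted p = 1.58e-05) in mitosis-high cells. Mitosis-high exceeded S-high cells in 7 of 8 hosts, and S-high minus mitosis-high was -0.26 on the log2 scale (SE 0.69, adjusted p = 0.997). Of the other nucleases and helicases, Polq, the polymerase of end joining at short homologies, was expressed in 1.59% of low, 36.9% of S-high and 42.3% of mitosis-high cells, and Eme1, the partner of the nuclease MUS81, in 2.38%, 14% and 16.1%. Both were called in each class. Blm, the helicase that dissolves crossed strands, was expressed in 5.16%, 36.0% and 29.5% and was called in each class, but its mitosis-high call (adjusted p = 0.0412) was lost without any host but V7, with adjusted p from 0.0675 to 0.124. That call was also lost with thinned cells, no filter on low counts, shorter score lists and cells near a cut left out. Mus81 and Slx4, the scaffold of these nucleases, were not called: Mus81 was expressed in 10.3%, 13.1% and 16.1% of cells and Slx4 in 9.92%, 17.8% and 19.5%.

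Of the strand exchange factors and remodellers, 7 of 9 were called higher in both classes. Hrob, which brings the MCM8 and MCM9 helicase to recombination sites, had a median over hosts of 0.0379 CPM in low, 111 in S-high and 108 in mitosis-high cells. Its low values ran to 4.54 CPM, its S-high values from 1.83 to 392 and its mitosis-high values from 42.4 to 193, so the S-high value of 1 host, V7, overlapped the low cells. The log2 fold change was 8.99 (SE 1.46, adjusted p = 0.001) in S-high and 8.95 (SE 1.44, adjusted p = 0.00088) in mitosis-high cells. Mcm8 had 0 counts in all low cells. Against a floor of 3 counts over the low cells, its level was 1744-fold higher in S-high and 1440-fold higher in mitosis-high cells. The floor covers counting error only and not which cells were sampled, so these folds are not lower bounds over cells. Mcm8 was expressed in 24 S-high and 15 mitosis-high cells. It ran from 0 to 53.1 CPM over hosts in S-high and from 0.127 to 84.7 CPM in mitosis-high cells (adjusted p = 0.00959 and 0.00526). The S-high call of Mcm8 was lost with thinned cells (adjusted p = 0.0812) and with shorter score lists (adjusted p = 0.324), and its mitosis-high call with shorter score lists. Its partner Mcm9 was not called, with medians of 23.8 CPM in low, 50.5 in S-high and 42.6 in mitosis-high cells.

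Xrcc3, a strand exchange factor, was at 0 in low cells of 7 hosts and at 0.0419 CPM in the other, which is 1 count. In S-high cells it ran from 9.15 to 38.5 CPM (median 19.3, 26 cells expressing) and in mitosis-high cells from 0 to 18.2 CPM (median 0, 4 cells expressing). The S-high values did not overlap the low values, and the mitosis-high values did. Both calls against low cells passed (adjusted p = 0.000564 in S-high and 0.0449 in mitosis-high), the second by few cells, and it was lost when any 1 host was left out (adjusted p from 0.0628 to 0.253). The mitosis-high call was also lost with thinned cells, no filter on low counts and cells near a cut left out. S-high exceeded mitosis-high cells in 7 of 8 hosts, without passing the test (adjusted p = 0.267). The ratio of S-high to low cells, 2872, had a 95% counting interval of 515 to 113466, which covers counting error only. Rad54l, a motor protein that remodels DNA during strand exchange, was expressed in 2.38% of low, 45.8% of S-high and 25.5% of mitosis-high cells, and its relative Rad54b in 3.97%, 47.5% and 38.9%. Rad51ap1, a cofactor of strand exchange, was expressed in 0.794%, 24.2% and 24.2%, and Rad51c, of the same group, in 1.19%, 21.2% and 14.1%. All 4 were called in each class. The mitosis-high call of Rad54l was lost without A7, A8, A11, A12, V5 or V9 (adjusted p from 0.0542 to 0.127). It was also lost with thinned cells, no filter on low counts, no block and cells near a cut left out. Both calls of Rad51ap1 were lost without A7, A10, A11, V5, V7 or V9 (adjusted p from 0.0638 to 0.0849 in S-high and from 0.0628 to 0.0906 in mitosis-high cells), and both of Rad51c with shorter score lists. Both calls of Rad51ap1 were also lost with no block, and its mitosis-high call with cells near a cut left out. Xrcc2, another such factor, was not called by edgeR, with 1.59%, 15.7% and 6.71% of cells expressing it. It was called in S-high cells by DESeq2 (adjusted p = 3.71e-05), with the plate block and with cells near a cut left out, and in mitosis-high cells by DESeq2 (adjusted p = 0.0488). The plate block takes plates of 1 host as separate units, which are not independent animals.

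The pair marked by the core complex differed in edgeR's calls. Fancd2 ran from 0 to 1.96 CPM over hosts in low cells, from 59.8 to 289 in S-high and from 70.6 to 150 in mitosis-high cells, with no overlap of either class with the low cells. Its log2 fold change was 8.88 (SE 0.74, adjusted p = 7.8e-07) in S-high and 8.14 (SE 0.71, adjusted p = 8.95e-07) in mitosis-high cells. Fanci ran from 0.379 to 29.7 CPM in low, from 134 to 309 in S-high and from 0.513 to 122 in mitosis-high cells. It was called in S-high cells (log2 fold change 3.32, SE 0.77, adjusted p = 0.018) but not in mitosis-high cells (1.77, SE 0.77, adjusted p = 0.308, and 0.0351 by DESeq2), and S-high exceeded mitosis-high cells in 8 of 8 hosts. That difference did not pass the test (log2 1.55, SE 0.72, adjusted p = 0.703). The S-high call was lost without A8, A12, V7 or V9, with adjusted p from 0.0509 to 0.0616.

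Brca1, the ubiquitin ligase subunit that starts resection of broken ends, ran from 0.599 to 39.7 CPM in low, from 72.2 to 282 in S-high and from 10.6 to 126 in mitosis-high cells. The S-high values did not overlap the low values. Its log2 fold change was 4.09 in S-high cells (SE 1.0, adjusted p = 0.025) and 2.45 in mitosis-high cells (SE 0.92, adjusted p = 0.21, and 0.00411 by DESeq2). The S-high call was lost without A8, A10, V5, V7 or V9, with adjusted p from 0.0535 to 0.0767, and also with no filter on low counts. Its partner Bard1 was called in both, with log2 fold changes of 4.53 (SE 0.79, adjusted p = 0.00194) and 3.57 (SE 0.75, adjusted p = 0.0076). Brip1, the helicase that binds BRCA1, was expressed in the most S-high cells of any member, 177 of 236 (75%), against 25 of 252 low cells (9.92%) and 85 of 149 mitosis-high cells (57.0%). It ran from 0.95 to 89.9 CPM in low, from 468 to 776 in S-high and from 187 to 536 in mitosis-high cells. Neither class overlapped the low cells, and S-high exceeded mitosis-high cells in each of 8 hosts (log2 difference 0.88, SE 0.46, adjusted p = 0.774). Brca2 and Palb2, which act together ahead of strand exchange, were not called by edgeR. Brca2 had medians of 16.7 CPM in low, 103 in S-high and 40.6 in mitosis-high cells, and Palb2 20.9, 55.7 and 36.7 CPM. For Brca2, S-high against low gave log2 3.12 (SE 0.98, edgeR adjusted p = 0.11, and 0.000216 by DESeq2). Brca2 was called also without A7 and with the plate block, whose units are not independent animals.

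**Figure D2:**
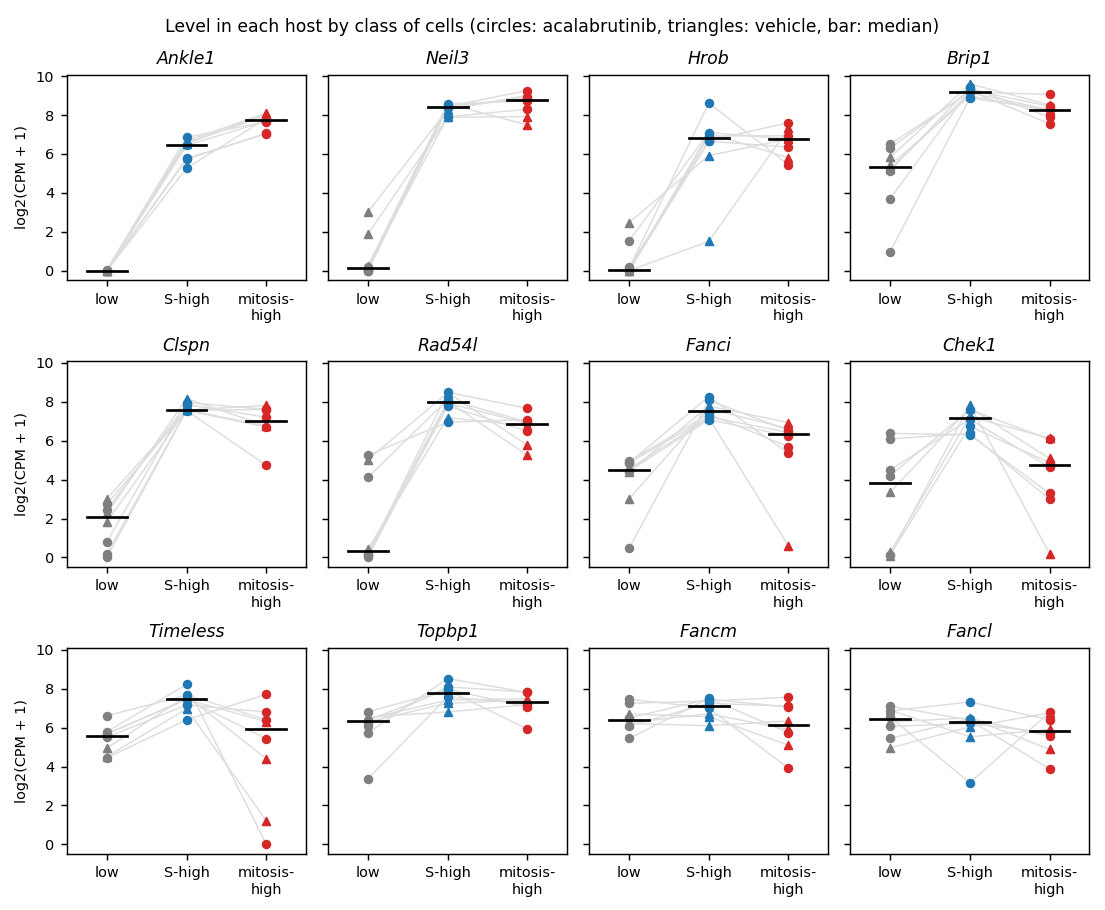
Level of 12 members in each of the 8 hosts as log2(CPM + 1), with 1 point per host and class of cells (grey low, blue S-high, red mitosis-high), lines joining the points of a host and black bars at the median. Ankle1 is higher in S-high than in low cells and again in mitosis-high cells in 8 of 8 hosts, Fanci and Chek1 are lower in mitosis-high than in S-high cells in 8 of 8 hosts, and the classes overlap for Fancm and Fancl.

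The ATR checkpoint and fork genes split between called and uncalled members. Clspn, the adaptor through which ATR activates CHK1, ran from 0 to 7.13 CPM in low, from 187 to 285 in S-high and from 25.6 to 225 in mitosis-high cells, and was called in both (log2 fold change 6.57, SE 0.80, adjusted p = 6.61e-05, and 5.78, SE 0.77, adjusted p = 0.000144). Topbp1, the activator of ATR, was common in low cells as well. It ran from 9.39 to 112 CPM in low and from 111 to 367 in S-high cells, which overlap narrowly, and from 59.8 to 226 in mitosis-high cells. It was called in S-high cells (1.57, SE 0.39, adjusted p = 0.0267) and not in mitosis-high cells by edgeR (1.17, SE 0.39, adjusted p = 0.124, and 0.00933 by DESeq2). The S-high call was lost without A7, A8, A12, V5 or V9, with adjusted p from 0.0535 to 0.0958. It was also lost with no filter on low counts and with cells near a cut left out.

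Chek1, the kinase itself, and Timeless, which holds the replication fork together, had their highest medians in S-high cells, were called there by DESeq2 and were not called by edgeR. Chek1 ran from 0.0584 to 82.4 CPM in low (median 13.3), from 78.1 to 230 in S-high (median 143) and from 0.14 to 69.5 in mitosis-high cells (median 26.1). Every S-high value lay above every mitosis-high value, and 39.0% of S-high cells expressed it, against 3.17% of low and 12.1% of mitosis-high cells. Its estimates had wide errors: log2 3.48 against low (SE 1.52, adjusted p = 0.333) and 2.63 against mitosis-high cells (SE 1.27, adjusted p = 0.733). DESeq2 called it against low cells (adjusted p = 0.00338). Timeless ran from 20.8 to 96.9 CPM in low, from 83.8 to 297 in S-high and from 0 to 209 in mitosis-high cells, with a log2 fold change of 2.07 in S-high cells (SE 0.84, adjusted p = 0.269, and 0.0284 by DESeq2). Atr and its partner Atrip were not called. Atr was expressed in 11.5% of low, 11.4% of S-high and 16.1% of mitosis-high cells, and Atrip in 8.73%, 15.3% and 14.1%.

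None of the 7 core complex genes tested was called in any class by edgeR, and Fancf was too low to test. Of all genes, 2.8% were called higher in S-high and 2.78% in mitosis-high cells, so 0 of 7 is near that share. Fancl, the ligase, was expressed in 26.6% of low, 32.6% of S-high and 28.2% of mitosis-high cells. It ran from 30.3 to 137 CPM in low, from 8.03 to 159 in S-high and from 13.7 to 109 in mitosis-high cells, with log2 fold changes of -0.20 (SE 0.53, adjusted p = 0.949) and -0.44 (SE 0.54, adjusted p = 0.845). Fancm, the translocase that anchors the complex on DNA, ran from 42.5 to 175 CPM in low, from 67.6 to 181 in S-high and from 14.1 to 189 in mitosis-high cells (log2 0.41, SE 0.41, adjusted p = 0.817, and -0.30, SE 0.42, adjusted p = 0.874). More S-high than low cells expressed it, 36.4% against 15.9%, and the expressing low cells had a higher median level, 590 CPM against 309. Fancc was expressed in 13.9%, 19.5% and 18.8% of cells. Fanca and Fancg were expressed in 6.35% and 6.75% of low and 23.3% of S-high cells each, with log2 fold changes of 1.46 (SE 0.75) and 1.48 (SE 0.91). Fancb was expressed in 1 low, 27 S-high and 9 mitosis-high cells and missed edgeR's threshold in S-high cells (adjusted p = 0.0503). It was called there with shorter score lists, without A7 or A11 and with the plate block, whose units are not independent animals. DESeq2 called it in S-high (adjusted p = 1.9e-07) and mitosis-high cells (adjusted p = 0.00232). Fance was expressed in 27 cells and Fancf in 4, so neither could be placed.

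The tilt of each gene towards S phase or mitosis was also read in cells above 0 on 1 score only, 105 for S phase and 75 for mitosis, a description chosen after the values were seen. By summed CPM, 7 members were over 3 times higher in the S phase cells: Fancb, Chek1, Brca2, Xrcc2, Timeless, Fanci and Atrip. The level was 159 against 14.5 CPM for Chek1, 150 against 17.05 for Brca2, 174 against 48.2 for Fanci and 214 against 47.4 for Timeless. In the 6 hosts with at least 5 cells of each kind, Chek1, Brca2 and Fanci were higher in the S phase cells in 6 of 6. Timeless, Xrcc2 and Atrip were higher there in 5 of 6 and Fancb in 3 of 6. Fancb was expressed in 9.52% of the S phase and 2.67% of the mitosis cells. For Atrip these shares were close, at 17.1% and 14.7%. Its level was 28.5 CPM in cells above 0 on both scores and 40.6 CPM in cells above 0 on neither. The share of all genes that differ over 3 times either way was not computed. Another 4 members were over 3 times higher in the mitosis cells: Eme1 (38.9 against 6.35 CPM), Hrob (94.9 against 16.6), Ankle1 (182 against 38.2) and Neil3 (437 against 103). Neil3 was higher in the mitosis cells in 6 of 6 hosts and the other 3 in 5 of 6. The remaining 25 members with counts in both kinds of cell lay within 3 times of each other, with Brip1 higher in the S phase cells in 6 of 6 hosts (405 against 208 CPM) and Fancl near equal (90.4 against 73.5). In the edgeR fit on these cells no member was called between the 2 kinds.

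**Figure D3:**
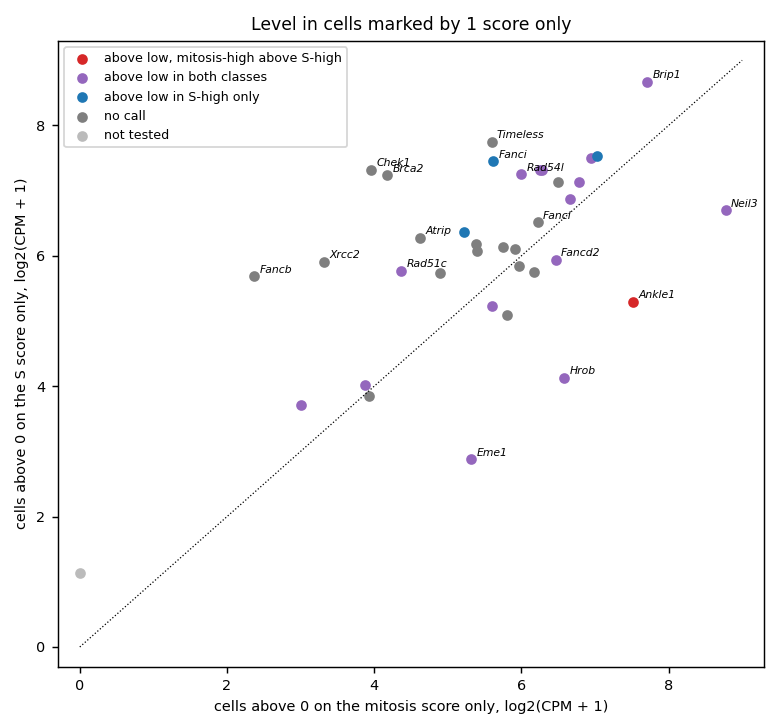
Level as log2(CPM + 1) summed over the 105 cells above 0 on the S score only (vertical) and the 75 cells above 0 on the mitosis score only (horizontal), 1 point per gene coloured by edgeR's calls between classes, with a dotted line of equal level. Chek1, Brca2, Fancb and Xrcc2 lie far above the line, and Neil3, Ankle1, Hrob and Eme1 below it. Fancb rests on few expressing cells and was higher in the S phase cells in 3 of 6 hosts.

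Across all 637 cells, Spearman's rho of log2(CPM + 1) with the S score ran from 0.011 (Fance) to 0.62 (Brip1) and with the mitosis score from -0.0054 (Fance) to 0.68 (Neil3). Among the nucleases, rho was 0.27 with the S and 0.54 with the mitosis score for Ankle1, and among the checkpoint genes 0.43 and 0.20 for Chek1. These are descriptions over cells that share hosts, plates and depth with both scores.

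Expression in the same cell was counted for 7 pairs of genes whose products work together. Fancd2 and Fanci were both expressed in 60 cells, Fancd2 alone in 69 and Fanci alone in 104, so 46.5% of Fancd2 cells expressed Fanci, against 20.5% of cells without Fancd2. Brca1 and Bard1 were both expressed in 69 cells, 57.0% of Brca1 cells and 35.8% of Bard1 cells. Chek1 and Clspn were both expressed in 72 cells, 61 of them S-high, which is 61.0% of Chek1 cells. Of Brca2 cells 24.1% expressed Palb2, against 9.71% of cells without Brca2, and of Eme1 cells 20.6% expressed Mus81, against 11.8% of those without Eme1. For Atr and Atrip, 9 cells expressed both, 11.2% of Atr cells against 12.6% of cells without Atr, and for Mcm8 and Mcm9 5 cells, 12.8% against 12.2%. These shares describe detection over the cells of all classes together and were not tested.

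Of 69 other genes of these pathways, 4 belong to the S phase score and were left out, and 62 were tested. In S-high cells 12 were called higher and 0 lower (2.8% and 0.922% of all genes tested). In mitosis-high cells 6 were called higher and 1 lower (2.78% and 1.3% of all genes tested). The median log2 fold changes were 0.92 and 0.61. Among those called, the largest folds in S-high cells were those of Tonsl, which binds newly made chromatin at forks (median 1.05 CPM in low and 104 in S-high cells, adjusted p = 0.0402), and Parpbp, which restrains recombination (0.13 and 28.3 CPM, adjusted p = 0.0444). Among those called in mitosis-high cells they were those of Parpbp (135 CPM, adjusted p = 0.00207) and of the nuclease Gen1 (12.1 CPM in low and 175 in mitosis-high cells, adjusted p = 0.00167). Zswim7, a recombination factor, was lower there, at medians of 4.17 CPM in low and 0 in mitosis-high cells (adjusted p = 0.0133). It was the 1 lower call of 62, which is near the share over all genes. Rpa1, a subunit of the single-strand binding protein, was called higher in S-high than in mitosis-high cells, at medians of 740 and 370 CPM (log2 0.93, SE 0.18, adjusted p = 0.0405).

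No member was called between acalabrutinib and vehicle hosts by edgeR, which does not show that the levels were equal. Each host's cells were a mix of BTKC481S cells, insensitive to the drug, and BTKWT cells, in a proportion that cell names do not give. The comparison is therefore not one of drug-sensitive cells alone. Over all cells of a host 0 of 37 genes were called, with 2 at an unadjusted p under 0.05, and of all 18016 genes tested 0% were called and 3.42% were under 0.05 unadjusted. DESeq2 also called 0 members (0.583% of all genes). Within classes edgeR called 0 of 27 genes in low, 0 of 37 in S-high and 0 of 36 in mitosis-high cells (0% of all genes in each). Unadjusted, 0, 3 and 1 members were under 0.05, against 4.04%, 2.78% and 2.68% of all genes. DESeq2 called 0 members in each class, against 1.01%, 0.303% and 0.832% of all genes. The smallest p over all cells were those of Ankle1, Fancm and Slx4. Ankle1 was at 49.6, 71.9, 80.9, 53.9 and 88.2 CPM in A7, A8, A10, A11 and A12 and at 96.4, 114 and 127 CPM in V5, V7 and V9. All 5 acalabrutinib values lay below all 3 vehicle values (log2 -0.73, SE 0.23, edgeR adjusted p = 1). Fancm was at 105, 163, 104, 145 and 115 CPM in the acalabrutinib hosts and at 84.4, 74.0 and 81.8 CPM in the vehicle hosts. Here all acalabrutinib values lay above all vehicle values (log2 0.64, SE 0.22, edgeR adjusted p = 1). These 2 of 37 genes were the ones whose hosts did not overlap by treatment, against 2.18% of all genes tested. Slx4 overlapped, with 12.5 to 101 CPM in acalabrutinib and 63.3 to 138 CPM in vehicle hosts (log2 -1.05, SE 0.57, edgeR adjusted p = 1).

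The share of mitosis-high cells stood beside the Ankle1 values. It was 22.1% ± 3.87 (SD, n = 5 hosts) with acalabrutinib and 26.6% ± 6.04 (n = 3) with vehicle, which overlapped (exact two-sided permutation test, p = 0.214, adjusted p = 0.643 over 3 classes). For S-high cells the shares were 35.6% ± 12.6 and 34.3% ± 9.32 (exact permutation p = 0.875, adjusted p = 0.875) and for low cells 42.3% ± 11.9 and 39.1% ± 6.58 (exact permutation p = 0.661, adjusted p = 0.875). The smallest p that 5 hosts against 3 can give is 0.0179. Within mitosis-high cells Ankle1 was not called between treatments, but edgeR called 0% of all genes there, so this does not show equal levels. The log2 difference of Ankle1, acalabrutinib over vehicle, was -0.55 (SE 0.26) in mitosis-high and -0.49 (SE 0.47) in S-high cells. Over all cells it was -0.73 (SE 0.23). The part of the class shares in its host values was not tested.

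The change of a gene from low to cycling cells was compared between treatments as an interaction. By edgeR none of 36 genes was called in either class (0% of all genes). At an unadjusted p under 0.05 were 5 members in S-high and 3 in mitosis-high cells, against 2.95% and 3.57% of all genes. DESeq2 called 5 in S-high cells (Brca1, Chek1, Fancb, Fancg and Neil3; 2.23% of all genes) and 4 in mitosis-high cells (Atrip, Fancb, Fancg and Neil3; 3.59%). The smallest p was that of Neil3, with an interaction of log2 6.13 in mitosis-high (SE 1.07, edgeR adjusted p = 0.432) and 5.34 in S-high cells (SE 1.10, edgeR adjusted p = 1). These estimates turned on the low cells, where Neil3 was at 0, 0.0611, 0, 0.146 and 0 CPM in A7, A8, A10, A11 and A12 and at 2.66, 0.175 and 7.1 CPM in V5, V7 and V9, with 1 expressing cell each in V5 and V9 and none in the other hosts. Without V7 edgeR called Neil3 in both (adjusted p = 0.026 and 0.0204). Chek1 was expressed in 7 low cells of acalabrutinib hosts and 1 of vehicle hosts, and the interactions of Brca1 (log2 -4.29, SE 1.63), Chek1 (-6.75, SE 2.91), Atrip (-6.14, SE 2.06, in mitosis-high cells) and Fancg (-4.71, SE 2.10, in mitosis-high cells) all had an edgeR adjusted p of 1.

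**Figure D4:**
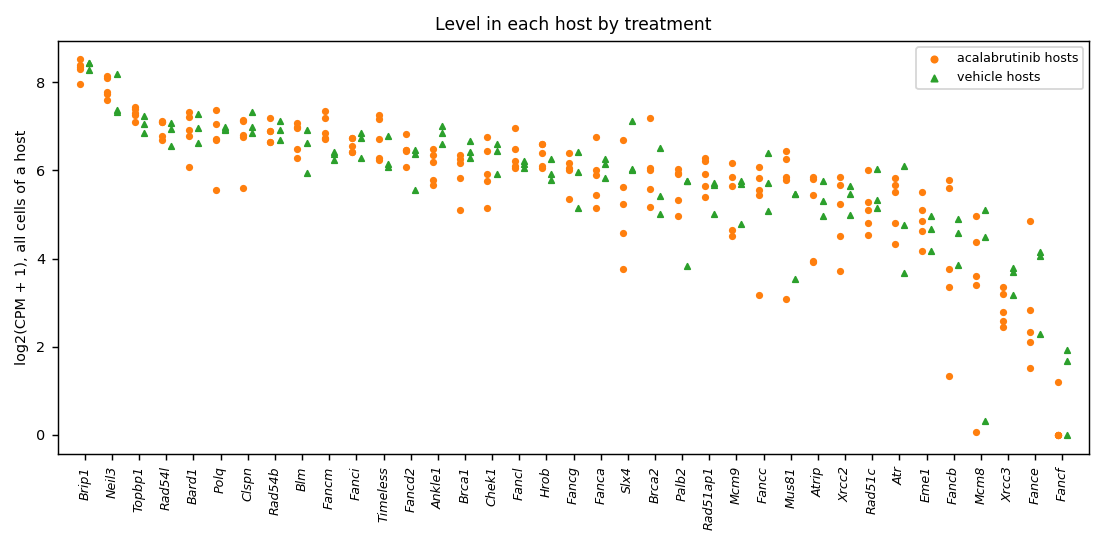
Level of each member over all cells of a host as log2(CPM + 1), 1 point per host, for the 5 acalabrutinib hosts (orange circles) and the 3 vehicle hosts (green triangles), ordered by the median over hosts. Ankle1 and Fancm, 2 of the 37 genes, separate the treatments, and the hosts spread most for the genes at the right, such as Mcm8, Fance and Fancf.

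The spread over hosts differed widely between members. The coefficient of variation of CPM over the 8 hosts had a median of 33.4% over the 37 genes. It was lowest for Brip1 (10.8%, from 250 CPM in A8 to 365 CPM in A12), Topbp1 (13.1%), Fanci (14%), Rad54l (14.4%) and Rad54b (14.8%). It was highest for Fancf (147%), Fance (92.4%), Mcm8 (80.1%) and Fancb (79.0%), each expressed in under 7% of cells. Xrcc3, expressed in 4.71% of cells, was at 37.6%, near the median. Leaving out Fancf, which was at 0 in 5 hosts, A7, with 45 cells, was the lowest for 11 of 36 genes and V7, with 55 cells, for 10, while V9, with 130 cells, was the lowest for 1. Over all 37 genes V9 was the highest for 8, A7, A8 and A10 for 6 each and V7 for 1. Brca2 ran from 31.0 CPM in V7 to 145 CPM in A11, which was also the host with the highest share of S-high cells, 51.8%. V5, with 40.8% S-high cells, was at 42.1 CPM and V9, with 38.5%, at 89.7 CPM. A link between Brca2 and this share was not tested. The mean number of the 37 genes expressed per cell ranged over hosts from 1.79 to 2.74 in low, from 8.79 to 11.4 in S-high and from 6.93 to 10 in mitosis-high cells, lowest in V5 in each class. V5 also had the lowest median count per cell, 599290, followed by A7 with 605715. The part of depth in the values of these hosts was not tested.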

How the data were processed

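The authors deposited 1 table of counts per gene and cell, made with STARsolo 2.7.10a against GRCm39, counting reads that overlap exons and introns and counting reads at the same position once. No value was normalized before deposit. The median count per cell ran from 599290 to 946463 over hosts, and intervals and floors cover counting error only, since the reads carry no molecular identifiers.

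Counts were summed per host and class and tested with edgeR's quasi-likelihood test (edgeR 4.0.16, R 4.3.3) over all genes that passed its filter, with the host as a block and Benjamini-Hochberg adjustment at 0.05. The block is a real pairing, since the classes come from the same animal. The SE beside an edgeR log2 fold change was not fitted. It is the absolute log2 fold change divided by the square root of the test's F statistic, and is approximate, above all where counts are near 0. Treatments were compared over hosts, with 5 against 3. DESeq2 1.42.0, other size factors, no filter, thinned cells, shorter score lists, cells near a cut left out, no block and each host left out were alternatives. The plate block, the fit on cells above 0 on 1 score only and the description of those cells were chosen after seeing the data. The plate block counts plates of the same host as separate units, so its p-values do not measure the spread over animals. Shares of cells were compared by an exact permutation test. The fits were also run on simulated counts, with smaller changes than those of many members and no difference between hosts. That run does not check the fits where a class is near 0. Sums and shares were computed with pandas 2.3.3, SciPy 1.17.1 and NumPy 2.4.6 under Python 3.11.15.

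The members and lists were chosen with earlier results of these data known. By rule, values were given in full for up to 4 members of each pattern with the largest absolute log2 fold change (for members not called, the 4 with the highest mean CPM), for the 3 members with the smallest p by treatment, and, among other pathway genes called, for the 2 with the largest fold each way. Other members were described by role after their values were seen. Promoters came from the RefSeq table of GRCm38.p6, matched by symbol, with no entry used for Fancd2, Xrcc2, Hrob and Rad54b. The host is the replicate. In the comparisons of classes and the interactions, the block removes each host's own level, so p-values measure how the class difference varies over hosts. P-values between treatments measure the spread between hosts.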

Additional observations from a re-analysis of the deposited data

Results flagged for a closer look

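For 3 of 48 groups of hosts tested, 1 host stood far from the others by Dixon's test, where chance gives about 5%. Mcm8 in mitosis-high cells was at 84.7 CPM in A8 and at 0.127 to 36.7 CPM in the other hosts. Hrob in S-high cells was at 392 CPM in A7, which had 10 such cells, and at 1.83 to 136 CPM in the others. Slx4 in S-high cells was at 181 CPM in A10 and at 17.9 to 67.6 CPM in the others.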

How the results depend on the processing

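Of the 19 members higher in S-high cells, 13 were called in every alternative but the cells above 0 on 1 score only, and 10 of the 16 higher in mitosis-high cells. On cells above 0 on 1 score only, which has fewer cells, each count was 6, and Fancl against low cells reversed to 0.14. Leaving out each host gave 15 to 19 calls in S-high and 12 to 14 in mitosis-high cells. With no replicate block the counts were 18 and 14, with a plate block 22 and 17 and by DESeq2 24 and 21. The plate block counts plates of 1 host as separate units, so its added calls do not come from more animals. Between S-high and mitosis-high cells, DESeq2 and the plate block each called 1 member higher in S-high cells (Xrcc3). The 1 member higher in mitosis-high cells (Ankle1) became 0 with no filter, thinned cells, shorter lists, cells near a cut left out, the plate block, cells above 0 on 1 score only and each host left out (0 to 0). The interactions with treatment went from 0 to 5 and 4 by DESeq2 and to 0 to 1 with a host left out, the 1 being Neil3 without V7 in both. The treatment difference in class shares, in percentage points, ran with a host left out from -0.747 to 6.47 for low, from -4.05 to 4.63 for S-high and from -8.01 to -2.42 for mitosis-high cells, and for S-high cells was -2.46 with cells near a cut left out. The cause of these moves was not tested. Apart from the thinned cells, which equalise counts only, the part of depth and capture in the genes expressed in few low cells was not tested.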
